A study of Mus musculus with 20 samples.

Results

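Axon guidance genes code for the secreted and membrane-bound cues that steer growing nerve fibres, and for the receptors on the growth cone that read them. The genes described here were taken by symbol from the deposited count table: the semaphorins of classes 3 to 7, plexins, neuropilins, A and B ephrins with their Eph receptors, netrins and netrin-G genes, Slits with their Robo receptors, the Unc5 receptors and Dcc. This gave 74 genes of 78258 identifiers, 37 for ligands, 34 for receptors and 3 for transcripts antisense to the plexin gene Plxna4. In all, 73 of the 74 passed the filter on low counts. The gene left out of the tests was Plxna4os2, with 0 to 4 counts per library.

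RNA was sequenced from lumbar dorsal root ganglia of 10 male mice; these ganglia hold the cell bodies of the sensory neurons of the trunk and limbs. Conditional knockout (cKO) mice carried Ahr fl/fl with Thy1CRE-ERT2/EYFP, that is floxed alleles of the aryl hydrocarbon receptor gene and a tamoxifen-inducible Cre driven by the Thy1 promoter, which is active mainly in neurons. Control mice carried Ahr f/f or f/+ by the description of the strain, and no Cre is named for them. Every control library name carries ff and every control title reads Wildtype, so the labels set no heterozygous control apart. Both genotypes received tamoxifen at 100 mg/kg once daily for 5 days at an age of 17 weeks, and the sciatic nerve was cut after a further 4 weeks. Lumbar ganglia 4 to 6 were collected 1 day later and pooled per mouse and side, which gave 5 contralateral and 5 ipsilateral libraries in each genotype. The uninjured reference is therefore the other side of the same lesioned animal.

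In growing axons, semaphorins act through plexins, with neuropilins as co-receptors for most of the secreted class 3. Ephrins are held on the membrane, bind Eph tyrosine kinase receptors on neighbouring cells and can also signal backwards into their own cell. Netrins attract through Dcc and repel through Unc5 receptors, and Slits repel through Robos. In adult sensory ganglia several of these genes stay on, and nerve lesions are known to alter some of them.

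The libraries held 76.2 to 118.5 M counts (M, in units of 1e6). Markers fitted the labelled tissue: the summed level of 20 sensory neuron markers was 15100 to 17900 CPM (counts per 1e6 counts of the library, after TMM scaling) in every library, and no marker was at 0. Atf3, a transcription factor gene induced by axon injury, had 11.4 ± 1.81 CPM contralaterally and 426.5 ± 12.8 CPM ipsilaterally in control mice, and 9.24 ± 0.630 and 416.9 ± 40.04 CPM in cKO mice (mean ± SD, n = 5 each). Ahr, the targeted gene, was at 24.2 ± 2.10 CPM in contralateral libraries of control mice and at 20.4 ± 0.536 CPM in those of cKO mice, and 34.4 ± 2.86 and 31.9 ± 2.94 CPM on the ipsilateral side. The genotypes did not overlap contralaterally and overlapped ipsilaterally, and the difference was not called on either side (edgeR quasi-likelihood test, log2 fold changes -0.25 and -0.11, unadjusted p = 0.00107 and 0.119, adjusted p = 0.103 and 1). Thy1, whose promoter drives the Cre, was higher in cKO mice on both sides without overlap (log2 fold changes 0.77 and 0.63, adjusted p = 1.39e-08 and 4.65e-07). Whole-gene Ahr counts over all cell types do not measure the excised stretch itself, which was not analysed here. In whole ganglia, fewer cells of a type and less RNA per cell cannot be told apart.

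A pair of neighbouring ephrin genes are shown by sequence first, because nerve injury moved them in opposite directions. Efna1, Efna3 and Efna4, all A-ephrin ligands, lie next to each other in the RefSeq annotation, on chromosome 3. One RefSeq start region of Efna1 and one of Efna3 is printed below 5′ to 3′ in the direction of transcription, from 250 bases before the annotated start to 50 bases after it (GRCm38.p6). Efna1 is the window chr3:89280902-89281201 and Efna3 the window chr3:89322890-89323189, both on the minus strand. Capitals mark GCGTG on either strand, the core of the xenobiotic response element to which the aryl hydrocarbon receptor is known to bind.
Efna1: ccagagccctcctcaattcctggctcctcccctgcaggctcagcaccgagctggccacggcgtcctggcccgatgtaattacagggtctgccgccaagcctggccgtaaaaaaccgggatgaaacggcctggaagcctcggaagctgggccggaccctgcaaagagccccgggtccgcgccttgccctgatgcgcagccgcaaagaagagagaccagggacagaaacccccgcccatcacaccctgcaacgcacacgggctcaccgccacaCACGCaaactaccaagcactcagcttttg
Efna3: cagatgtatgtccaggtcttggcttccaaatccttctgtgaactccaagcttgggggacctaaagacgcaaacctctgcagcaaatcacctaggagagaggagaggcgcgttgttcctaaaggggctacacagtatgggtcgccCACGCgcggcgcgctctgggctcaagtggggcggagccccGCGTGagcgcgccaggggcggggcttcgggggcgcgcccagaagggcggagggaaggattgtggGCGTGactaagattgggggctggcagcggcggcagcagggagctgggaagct
The Efna1 window holds 1 such core and the Efna3 window 3; a second annotated start region of each gene, not shown, holds 0 in Efna1 and 3 in Efna3. Of the members, 61 matched the RefSeq promoter table, with 77 windows, and 29 of these windows (37.7%) held the core against 32.4% of all 32851 windows of 300 bases. Sema6a, Plxna4, Slit1, Dcc, Ntn1 and Unc5d were among the members without a window, so their start regions were not searched. Windows rather than genes were counted, and some genes had several. The AP-1 site TGANTCA, searched on both strands, was in 3 member windows (3.9%, against 7.81% of all windows), and the cyclic AMP response element TGACGTCA in 1 (1.3%, against 1.79% of all). A match of letters is a description of the sequence only.

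Levels differed widely within the families. Per kilobase of merged exon, the mean over all 20 libraries had a median of 2.53 CPM per kilobase over the 71 ligand and receptor genes, with 16 of them below 1, 43 from 1 to 10 and 12 at 10 or above. The highest level was that of Plxnc1, the receptor of the membrane-anchored semaphorin Sema7a, at 51.1 CPM per kilobase. Among the ligands, Sema3b, a secreted class 3 semaphorin, had 29.4 CPM per kilobase and Sema4f, a transmembrane semaphorin, 27.9. Slit1, a secreted repellent, had 22.9 CPM per kilobase, and Efna1 19.8. Robo2, a Slit receptor, had 14.9.

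In other families the leading genes were Ephb6, an Eph receptor without kinase activity, at 12.1 CPM per kilobase, Efnb1 at 9.35 and Ntng2, a lipid-anchored netrin relative, at 9.05. Nrp2, a class 3 semaphorin co-receptor, led the neuropilins at 6.53 CPM per kilobase, Unc5a the Unc5 receptors at 4.14 and Epha6 the EphA receptors. Dcc, the attractive netrin receptor, was low at 0.165 CPM per kilobase.

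**Figure D1:**
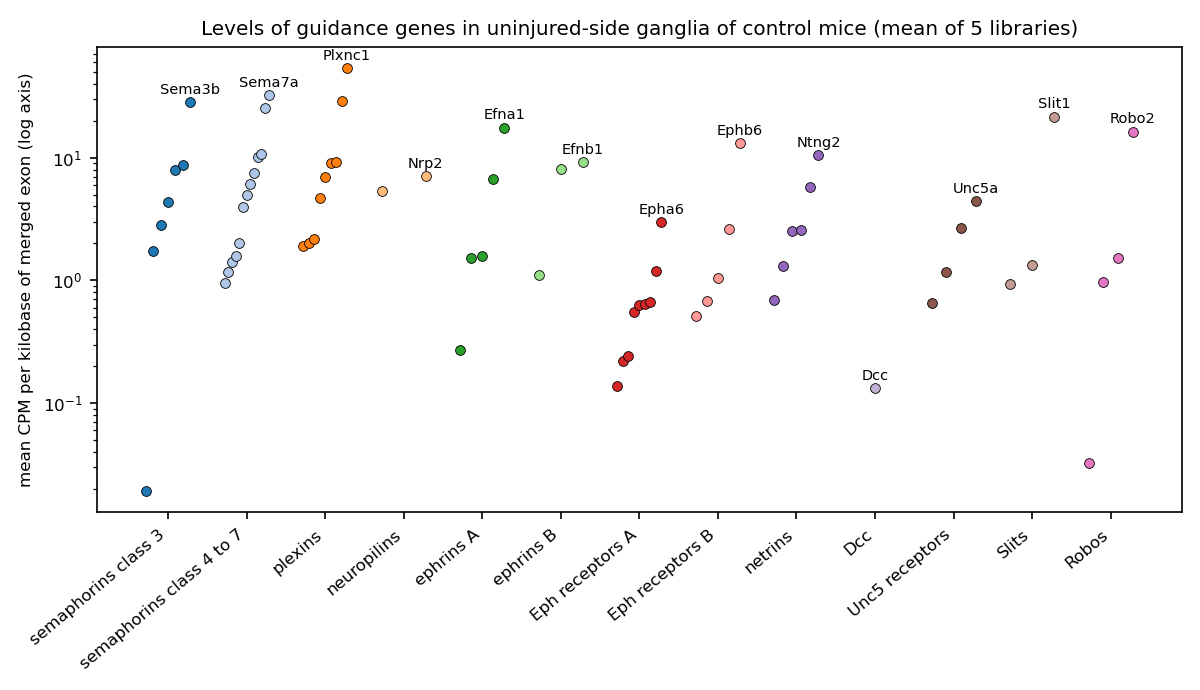
Mean level of each ligand and receptor gene in the 5 contralateral libraries of control mice, in CPM per kilobase of merged exon on a log axis, grouped by family, with 1 point per gene and the highest gene of each family named. Plxnc1 stands highest, while 7 of the 9 EphA receptors and Dcc lie below 1 CPM per kilobase.

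The response to the cut nerve was read within each genotype, as ipsilateral over contralateral ganglia. One gene stood far apart: Sema6a, a transmembrane semaphorin that binds A-type plexins, rose 9.26-fold in control and 10.8-fold in cKO mice. Plxna4, which codes for an A-type plexin that binds Sema6a, rose 1.87-fold and 2.14-fold. Most other calls were small. In control mice 29 of 73 members were called (39.7%; 15 higher and 14 lower), where 29.9% of all 28564 tested genes were called (13.8% higher, 16.0% lower), and 23 of the 29 changed by less than 1.5-fold. In cKO mice 33 members were called (45.2%; 15 higher and 18 lower) against 31.3% of all genes (16.2% higher, 15.1% lower), and 21 changed by less than 1.5-fold. Calls with an absolute log2 fold change of at least 0.5 numbered 9 in control and 15 in cKO mice, beside 8.17% and 8.44% of all genes. The median log2 fold change over the members was -0.003 in control and -0.05 in cKO mice, beside -0.005 and -0.03 over all tested genes. Calls stand for an adjusted p below 0.05 in edgeR's quasi-likelihood test, adjusted over all tested genes. The shares of all tested genes given here and below include many genes of low level, which few members are. With genes under a mean of 1 CPM removed, 40.5% (control) and 42.8% (cKO) of 19364 genes were called. In that setting 27 and 33 members were called.

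In all, 22 members were called in both genotypes, which is 75.9% of the control and 66.7% of the cKO calls, and these had the same direction in both (11 higher and 11 lower). Over all tested genes the shares were close to these, at 71.5% and 68.3%, and 6101 of 6103 shared calls had the same direction. A further 7 were called in control mice only, 11 in cKO mice only, and 33 in neither. The libraries of the sides did not overlap for 24 members in control mice, where 23.6% of all genes had no overlap, and for 23 in cKO mice, where the share was 20.2%. Leaving out each of the 10 mice in turn kept 20 of the 29 control calls and 24 of the 33 cKO calls in every case, and 17 members kept both.

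**Figure D2:**
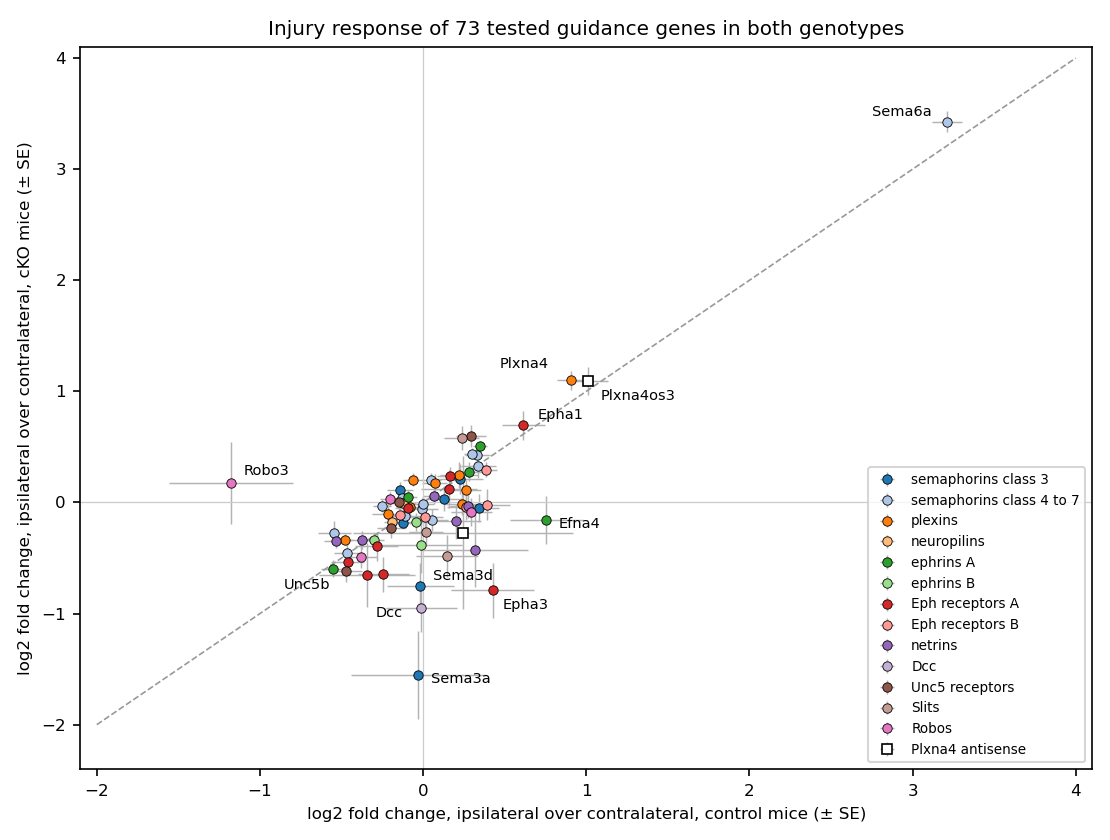
Log2 fold change of 73 tested genes, ipsilateral over contralateral, in control mice (horizontal) against cKO mice (vertical), with bars for 1 SE and colours for families; the dashed line marks equal change. Sema6a lies alone at the top right, Plxna4 and its antisense gene Plxna4os3 follow, and Sema3a, Dcc, Epha3 and Sema3d lie below the line.

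Among the ligands, Sema6a carried the largest change. In control mice it had 17.5, 18.0, 18.2, 17.8 and 16.6 CPM in the contralateral libraries of mice H62, H63, H65, H96 and H97, and 169, 167, 155, 167 and 157 CPM in their ipsilateral libraries. In cKO mice H61, H64, H95, H99 and H100 it had 16.4, 14.1, 15.2, 17.9 and 14.3 CPM contralaterally and 155, 216, 167, 152 and 147 CPM ipsilaterally. Every ipsilateral library stood above every contralateral one, and H64 was the highest of the cKO ipsilateral libraries. The log2 fold change was 3.21 (SE 0.0915, edgeR adjusted p = 4.89e-15) in control and 3.43 (SE 0.0927, adjusted p = 1.66e-15) in cKO mice. By log2 fold change Sema6a ranked 27 and 22 among 19365 tested genes whose mean reached 1 CPM, counted from the most increased.

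The transmembrane and anchored semaphorins (classes 4 to 7, 13 genes, Sema6a among them) moved both ways. In control mice 4 were called higher and 3 lower, and in cKO mice 5 higher and 2 lower, counts that include Sema6a. These are 53.8% of the class in each genotype, beside 29.9% and 31.3% of all tested genes. Sema4d was also called lower in control mice with mouse as a block (-0.13, adjusted p = 0.0287), with only the control libraries fitted, and without H64 or H99. Sema4f rose by 0.30 (control) and 0.44 (cKO) on the log2 scale, Sema4c by 0.33 and 0.43, and Sema4a by 0.34 and 0.33, though the Sema4a call was lost without H62, H63 or H97 in control and without H61 or H100 in cKO mice (adjusted p up to 0.0964 and 0.0965). Sema7a, which acts on Plxnc1 and on integrins, fell by 0.46 in control and by 0.45 in cKO mice, without overlap of the sides. Sema5b, a transmembrane semaphorin with thrombospondin repeats, had a log2 fold change of -0.54 (SE 0.103, adjusted p = 3.17e-04) in control mice, without overlap of the sides. In cKO mice it had -0.27 with an adjusted p of 0.0478, and the call held in 2 of the 10 leave-one-out fits (adjusted p up to 0.106).

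The class 3 semaphorins, the secreted ligands, had 1 of 7 called in control mice (Sema3c, 0.34 higher, adjusted p = 0.0448) and 3 called lower in cKO mice (Sema3a, Sema3d and Sema3f). These are 14.3% and 42.9% of the class, beside 29.9% and 31.3% of all genes. None of the 7 was called for a different response between genotypes (lowest adjusted p of the interaction 0.485). With mouse as a block, Sema3f was also called lower in control mice (-0.12, adjusted p = 0.0275). The Sema3c call was lost in 7 of the 10 leave-one-out fits, with H61, H64 and H99 the mice whose removal kept it (adjusted p up to 0.13). Sema3d had 17.9, 15.1, 13.6, 12.3 and 15.6 CPM in the control contralateral libraries and 15.99, 16.8, 12.01, 13.6 and 15.1 CPM in the control ipsilateral ones, in the order of mice given above. In cKO mice it had 19.4, 27.9, 35.4, 16.3 and 40.5 CPM contralaterally and 14.0, 17.6, 14.3, 15.3 and 21.5 CPM ipsilaterally. The control sides overlapped throughout, and the high values were the contralateral libraries of H64, H95 and H100. The log2 fold change was -0.02 (SE 0.206, adjusted p = 0.963) in control and -0.75 (SE 0.205, adjusted p = 0.00878) in cKO mice, where the call was lost without H95 (adjusted p = 0.0679). The cKO calls of Sema3d and Sema3f were both lost when only the cKO libraries were fitted.

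Sema3a, best known as the ligand that collapses sensory growth cones, was low, at 0.147 to 0.423 CPM in control contralateral and 0.241 to 1.30 CPM in cKO contralateral libraries. In cKO mice its log2 fold change was -1.55 (SE 0.397, adjusted p = 0.00477), with overlap of the sides and the highest contralateral values in H95 and H100. Sema3b, the highest class 3 gene, had log2 fold changes of 0.13 and 0.03 and was not called.

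Among the ephrins, Efna1 rose in both genotypes. Its level was 31.2 to 32.7 CPM in control contralateral libraries (median 32.1) and 37.9 to 43.3 CPM in ipsilateral ones (median 41.1), and 27.7 to 31.2 CPM against 38.2 to 44.5 CPM in cKO mice. The sides did not overlap, and the log2 fold change was 0.35 (SE 0.0416, adjusted p = 1.36e-06) in control and 0.51 (SE 0.0416, adjusted p = 5.34e-09) in cKO mice. Its neighbour Efna3 fell, from 3.21 to 3.95 CPM down to 2.40 to 2.71 CPM in control libraries and from 3.46 to 4.12 down to 2.29 to 2.94 CPM in cKO libraries. Again the sides did not overlap, with log2 fold changes of -0.55 (SE 0.075, adjusted p = 8.10e-06) and -0.60 (SE 0.0748, adjusted p = 2.51e-06).

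Efnb2, a transmembrane ephrin that is also an arterial marker, fell by 0.30 in control and by 0.34 in cKO mice. Efna5 and Efnb1 were not called in either genotype in the unpaired edgeR fit of all 10 mice. Efnb1 was called lower in cKO mice with mouse as a block (-0.17, adjusted p = 0.0345) and without H61 (adjusted p = 0.0402). Efna4, the third gene of the neighbouring group, was low, at 0.374 to 0.514 CPM in control contralateral and 0.641 to 0.9004 CPM in control ipsilateral libraries, and was called in control mice only (0.76 higher, adjusted p = 0.0123). Summed over the 5 A ephrins, the level went from 27.6 ± 0.524 to 32.0 ± 0.901 CPM per kilobase in control and from 26.3 ± 0.618 to 33.1 ± 1.40 CPM per kilobase in cKO mice.

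Of the 6 netrin genes, the membrane-anchored pair Ntng1 and Ntng2 fell in both genotypes and the other 4 were not called. The calls are 33.3% of the family in each genotype, beside 29.9% and 31.3% of all tested genes. In some other settings Ntn5 was called higher in control mice: without H95 or H100, with genes under a mean of 1 CPM removed, or with only the control libraries fitted. Ntng1 had 43.9 to 51.5 CPM contralaterally (median 48.01) and 32.2 to 33.9 CPM ipsilaterally (median 33.0) in control mice, and 37.8 to 51.9 and 31.9 to 35.8 CPM in cKO mice, without overlap of the sides. Its log2 fold changes were -0.54 (SE 0.0684, adjusted p = 3.47e-06) and -0.34 (SE 0.0682, adjusted p = 5.41e-04), and those of Ntng2 were -0.38 and -0.34. Ntn1, the classic secreted netrin, had 11.1 to 27.3 CPM in control contralateral and 14.8 to 46.4 CPM in cKO contralateral libraries, with wide spread and no call (log2 fold changes 0.32 and -0.43, SE 0.328 and 0.326).

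Of the 3 Slits, 1 was called, Slit1 in cKO mice. This is 0% of the family in control and 33.3% in cKO mice, beside 29.9% and 31.3% of all tested genes. In control mice Slit1 was called higher only without H99 (adjusted p = 0.0265) or with only the control libraries fitted (adjusted p = 0.00241). Slit2 and Slit3 were lower on the ipsilateral side in 5 of 5 cKO mice, with log2 fold changes of -0.27 and -0.48 (adjusted p = 0.0509 and 0.0595). With mouse as a block, which pairs the sides of an animal, both were called lower (adjusted p = 0.0182 and 0.00382), as they were with DESeq2. Slit1 had 115 to 142 CPM contralaterally and 146 to 161 CPM ipsilaterally in control mice, and 85.9 to 140.5 against 139 to 177 CPM in cKO mice. The control sides did not overlap, and the cKO sides overlapped by 1 library, the contralateral one of H99. Injury gave a log2 fold change of 0.24 (SE 0.107, adjusted p = 0.108) in control and 0.58 (SE 0.107, adjusted p = 3.62e-04) in cKO mice. The difference between these responses was itself not called (interaction 0.34, adjusted p = 0.498).

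Among the receptors that were called higher, Plxna4 rose most. In control mice it had 125, 128, 140.1, 113 and 147 CPM contralaterally and 257, 256, 237, 231 and 243 CPM ipsilaterally. In cKO mice it had 128, 104, 113, 131 and 118 CPM contralaterally and 232, 315, 258, 242 and 224 CPM ipsilaterally. All ipsilateral libraries were above all contralateral ones, and H64 was again the highest. The log2 fold change was 0.91 (SE 0.0867, adjusted p = 1.40e-07) in control and 1.10 (SE 0.087, adjusted p = 8.31e-09) in cKO mice, and the rise was seen in 5 of 5 mice of each genotype.

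The antisense gene Plxna4os3 lies within Plxna4 on the opposite strand and moved with it. It had 0.867, 0.894, 1.11, 0.788 and 1.08 CPM contralaterally and 2.33, 1.84, 1.77, 1.84 and 1.78 CPM ipsilaterally in control mice. Values in cKO mice were 1.12, 1.00, 0.899, 0.904 and 0.782 CPM contralaterally and 1.89, 2.52, 1.95, 1.80 and 1.91 CPM ipsilaterally. The sides did not overlap, and the log2 fold changes were 1.01 (SE 0.123, adjusted p = 1.96e-06) and 1.09 (SE 0.124, adjusted p = 6.17e-07). Its count was 0.664% to 0.962% of that of Plxna4 in each library. The library kit keeps strand, but the strand setting of the counting is not given in the sources used here, so reads of Plxna4 and of its antisense gene cannot be told apart with certainty. Plxna4os1 was at 0.110 CPM in control contralateral libraries on average and was not called.

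The remaining plexins and both neuropilins had smaller changes. Plxnb3 was higher ipsilaterally in 5 of 5 mice of each genotype and was not called (log2 fold changes 0.22 and 0.25, adjusted p = 0.168 and 0.119), but with mouse as a block it was called higher in both (adjusted p = 0.0365 and 0.0163). Plxnb2 was not called in control mice in the unpaired edgeR fit of all 10 mice (0.24, adjusted p = 0.0862). It was called higher there with the block (0.23, adjusted p = 0.011), with DESeq2 and with only the control libraries fitted. Plxnd1, a receptor for Sema3e, had 196 to 226 CPM contralaterally and 148 to 155 CPM ipsilaterally in control mice and fell by 0.48 on the log2 scale (SE 0.0529, adjusted p = 4.97e-07), and by 0.33 in cKO mice. Nrp2 fell by 0.19 and by 0.18, although the control call was lost without H65 (adjusted p = 0.0503). Plxnc1, the most abundant member, had a log2 fold change of -0.06 in control and of 0.21 (adjusted p = 0.0143) in cKO mice, a call lost without H64 or H100 (adjusted p up to 0.0896) and with only the cKO libraries fitted (adjusted p = 0.0593). Plxnb1, a receptor for Sema4d, was called in control mice only (0.27, adjusted p = 0.0297), and without H62, H96 or H97 it was not called (adjusted p up to 0.0897).

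**Figure D3:**
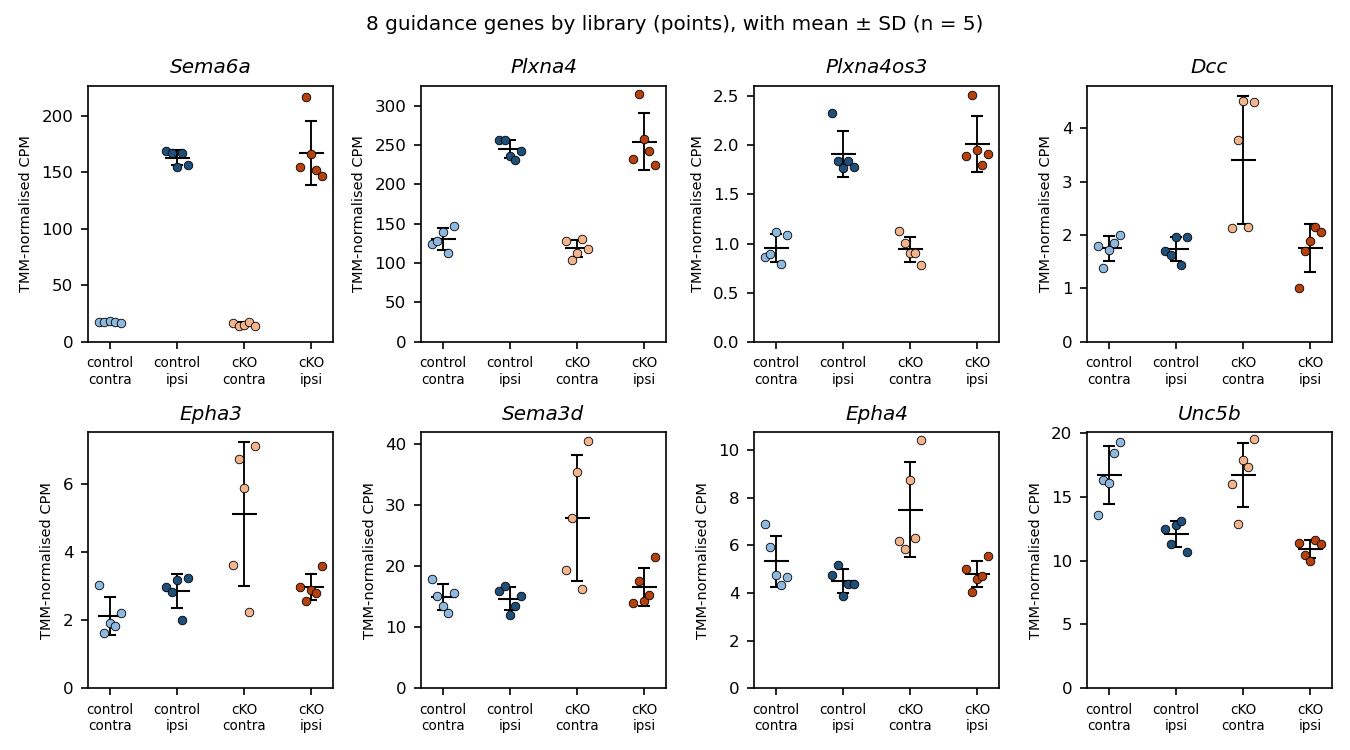
TMM-normalised CPM of 8 members in each library, by genotype and side; points are libraries, and the bar gives mean ± SD (n = 5). Sema6a, Plxna4 and Plxna4os3 separate the sides in both genotypes, Unc5b falls on the ipsilateral side in both, and Dcc, Epha3, Sema3d and Epha4 spread widely in the cKO contralateral libraries.

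The Eph receptors were mostly low and mixed. Of 9 EphA genes, 1 was called higher and 1 lower in control mice, and 2 higher and 4 lower in cKO mice. These are 22.2% and 66.7% of the family, beside 29.9% and 31.3% of all tested genes. Epha6 fell in both, from 13.6 to 17.5 CPM down to 10.8 to 12.2 CPM in control mice and from 12.6 to 18.8 down to 8.54 to 11.8 CPM in cKO mice, without overlap (log2 fold changes -0.46 and -0.53, adjusted p = 0.00159 and 4.25e-04). Epha1 rose by 0.61 and 0.69 from contralateral medians of 0.539 and 0.579 CPM. Of 5 EphB genes, 2 were called higher in control mice and 1 in cKO mice (40% and 20%), and none lower. Ephb2, a receptor for B ephrins, rose in both genotypes, by 0.38 and 0.30. The other control call was Ephb4 (0.39, adjusted p = 0.0434), lost without H63, H65, H96 or H97. Ephb6 was lower ipsilaterally in 5 of 5 mice of each genotype, and was called lower in both only with mouse as a block (adjusted p = 0.00982 and 0.0292). Epha5 and Epha7, receptors for A ephrins, were called in cKO mice only when all mice were fitted, at 0.24 and -0.40 on the log2 scale. Both cKO calls were lost with mouse as a block, that of Epha5 also without H64 or H95 (adjusted p up to 0.143) and that of Epha7 without H61, H64, H99 or H100 (adjusted p up to 0.0968). In control mice Epha5 was called higher without H97 (adjusted p = 0.0428) and Epha7 lower without H62 (adjusted p = 9.46e-04).

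Epha4, which binds both A and B ephrins, had 6.92, 5.95, 4.74, 4.36 and 4.69 CPM contralaterally and 4.75, 5.17, 3.86, 4.37 and 4.36 CPM ipsilaterally in control mice. Values in cKO mice were 6.20, 5.86, 8.75, 6.30 and 10.4 CPM contralaterally and 5.00, 4.05, 4.61, 4.73 and 5.56 CPM ipsilaterally. The control sides overlapped and the cKO sides did not, with H95 and H100 the highest contralateral libraries. The log2 fold changes were -0.24 (SE 0.155, adjusted p = 0.27) and -0.65 (SE 0.154, adjusted p = 0.00286).

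Epha3, a receptor for A ephrins, had 3.03, 1.63, 1.91, 1.83 and 2.21 CPM contralaterally and 2.98, 2.82, 3.19, 2.02 and 3.24 CPM ipsilaterally in control mice. The cKO libraries had 3.62, 6.72, 5.88, 2.23 and 7.11 CPM contralaterally and 2.97, 2.55, 2.89, 2.80 and 3.59 CPM ipsilaterally. The sides overlapped in both genotypes, and the high values were the contralateral libraries of H64, H95 and H100. Its log2 fold change was 0.43 (SE 0.252, adjusted p = 0.233) in control and -0.79 (SE 0.247, adjusted p = 0.0199) in cKO mice. The cKO call was lost without H64, H95 or H100 (adjusted p up to 0.122; log2 fold changes of -0.96 to -0.62 over the left-out mice), and also without the filter on low counts (adjusted p = 0.0602) or with only the cKO libraries fitted (adjusted p = 0.0733).

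Dcc had 1.80, 1.38, 1.72, 1.86 and 2.00 CPM contralaterally and 1.71, 1.62, 1.96, 1.44 and 1.96 CPM ipsilaterally in control mice. The cKO libraries held 2.13, 3.78, 4.52, 2.16 and 4.49 CPM contralaterally and 1.01, 1.69, 1.90, 2.15 and 2.06 CPM ipsilaterally. The control sides overlapped fully, and in cKO mice H64, H95 and H100 were again high contralaterally, with an overlap of the sides only between H61 contralaterally (2.13 CPM) and H99 ipsilaterally (2.15 CPM). Its log2 fold change was -0.01 (SE 0.218, adjusted p = 0.98) in control and -0.95 (SE 0.216, adjusted p = 0.00188) in cKO mice.

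Of the 4 repulsive netrin receptors of the Unc5 family, 1 was called lower and 1 higher in each genotype. That is 50% of the family, beside 29.9% and 31.3% of all tested genes. Unc5b had 13.5, 16.3, 16.1, 18.4 and 19.3 CPM contralaterally and 12.4, 11.3, 12.8, 13.1 and 10.7 CPM ipsilaterally in control mice. The cKO values were 16.03, 12.9, 17.9, 17.3 and 19.6 CPM contralaterally and 11.4, 10.5, 9.94, 11.6 and 11.3 CPM ipsilaterally. Every ipsilateral library was below every contralateral one of its genotype. Injury gave a log2 fold change of -0.47 (SE 0.0991, adjusted p = 9.34e-04) in control and -0.61 (SE 0.0992, adjusted p = 6.41e-05) in cKO mice.

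Unc5d rose in both genotypes, from 5.73 to 6.62 CPM up to 7.01 to 8.40 CPM in control and from 4.02 to 6.53 up to 7.26 to 8.82 CPM in cKO mice. The log2 fold changes were 0.29 (SE 0.0949, adjusted p = 0.0229) and 0.60 (SE 0.0953, adjusted p = 4.93e-05), and the control call was lost without H62, H65 or H96 (adjusted p up to 0.0713). Unc5a and Unc5c were not called in the unpaired edgeR fit of all 10 mice. In control mice Unc5a was called lower without H99 (adjusted p = 0.0233) or with only the control libraries fitted, and Unc5c without H62 (adjusted p = 0.046). DESeq2 called Unc5c lower in cKO mice. Of the Robos, Robo1 fell in both genotypes (by 0.38 and by 0.49). Robo2, its neighbour on the chromosome, had a log2 fold change of -0.20 in control mice (adjusted p = 0.0219), lost without H63, H65, H96 or H97 (adjusted p up to 0.124), and of 0.03 in cKO mice. Robo3, at 0.0997 to 0.307 CPM in control contralateral and 0.0699 to 0.146 CPM in control ipsilateral libraries, had a log2 fold change of -1.18 in control mice (adjusted p = 0.0227) and of 0.17 in cKO mice (adjusted p = 0.773). The control sides overlapped, and the Robo3 call was lost without H63 or H96 (adjusted p up to 0.0949).

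The genes that pass guidance signals on inside the axon were followed in lists of known pathway genes, of which all listed genes were tested. These lists were chosen with earlier results of these data known, so their called shares are a description only. Of 14 semaphorin and plexin mediators, 4 were called higher and none lower in control mice, and 8 higher and none lower in cKO mice. These calls are 28.6% and 57.1% of the list, beside 29.9% and 31.3% of all tested genes, so the control count is near the background. Rnd1, a small GTPase that binds plexins, had 2.18 ± 0.242 CPM contralaterally and 9.14 ± 0.752 CPM ipsilaterally in control mice, and 2.45 ± 0.298 and 8.49 ± 0.969 CPM in cKO mice (log2 fold changes 2.06 and 1.79, adjusted p = 1.02e-12 and 6.14e-12). Crmp1, a collapsin response mediator, rose by 0.50 and 0.68. The medians over this list were 0.09 and 0.15, beside -0.005 and -0.03 over all tested genes.

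Of 10 ephrin and Eph mediators, 1 was called higher and 5 lower in each genotype (60% of the list in both); the one that rose was Nck2, an adaptor, by 0.60 and 0.45. Of 12 netrin and Slit mediators, 3 were higher and 3 lower in control mice and 5 higher and 1 lower in cKO mice (50% in both), with rises of Ptk2, the focal adhesion kinase gene, by 0.53 in both, and of Srgap1, which acts downstream of Robos, by 0.41 and 0.60. Among 14 shared GTPase and actin genes, 6 were higher and 2 lower in control mice and 5 higher and 2 lower in cKO mice (57.1% and 50%). Of all tested genes, 29.9% were called in control and 31.3% in cKO mice. The medians of these 3 lists lay between -0.13 and 0.09.

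Of 14 co-receptors and related cues, 3 were higher and 3 lower in control mice and 6 higher and 3 lower in cKO mice (42.9% and 64.3%). These shares stand beside 29.9% and 31.3% of all tested genes. Flrt3, a membrane protein that binds Unc5 receptors and Robo1, rose in both genotypes, with 19.1 ± 1.33 CPM contralaterally and 188 ± 9.85 CPM ipsilaterally in control mice and 15.9 ± 2.05 and 192 ± 24.1 CPM in cKO mice (log2 fold changes 3.30 and 3.59, adjusted p = 2.28e-15 and 6.40e-16). Chl1, an adhesion molecule that associates with neuropilin, rose by 0.56 and 0.73. Dscaml1 fell by 1.02 and by 0.77, Dscam, a netrin co-receptor, by 0.60 and by 0.43, and Flrt1 by 0.52 in both. Of 11 myelin and matrix growth inhibitors and their receptors, 1 was higher and 7 lower in control mice and 1 higher and 5 lower in cKO mice. The calls are 72.7% and 54.5% of the list, again beside 29.9% and 31.3% of all tested genes. Lingo1, a co-receptor for Nogo, fell by 0.52 and by 0.36.

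Genotype was then compared on each side, to ask whether the knockout altered guidance genes away from the lesion and after it. On the contralateral side no member was called (0 of 73, with 0.0735% of all genes called). An unadjusted p under 0.05 in edgeR was found for 28 of 73 members and 5006 of 28564 tested genes. The members with the smallest p were Epha3 (log2 fold change 1.27, SE 0.252, adjusted p = 0.0548), Dcc (0.96, SE 0.216, adjusted p = 0.0769) and Sema3d (0.91, SE 0.206, adjusted p = 0.0892). All were higher in cKO libraries. Dcc was the 1 member whose genotypes did not overlap on this side, where 1.52% of all genes did not.

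This count depended on the setting and on 1 mouse. DESeq2 called 9 members, of which Dcc, Epha3, Epha4, Sema3c, Sema3d and Slit3 were higher and Plxnc1, Sema3e and Sema4b lower in cKO mice, with 3.64% of all genes called. Without mouse H99, edgeR called 23 members (11 higher, 12 lower) and 11.5% of all genes. The members then called higher were Dcc, Efna4, Epha3, Epha4, Ephb4, Ntn1, Ntn4, Sema3a, Sema3c, Sema3d and Slit3, with log2 fold changes from 0.47 (Ephb4) to 1.46 (Epha3). Those called lower were Ntng1, Plxnc1, Plxnd1, Robo2, Sema3e, Sema4b, Sema4d, Sema5b, Sema6d, Sema7a, Slit1 and Unc5a, with log2 fold changes from -0.40 (Slit1) to -0.17 (Sema4d). Without H61, 3 members were called (Dcc, Epha3 and Sema3d) with 0.605% of all genes, and without any other mouse none.

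**Figure D4:**
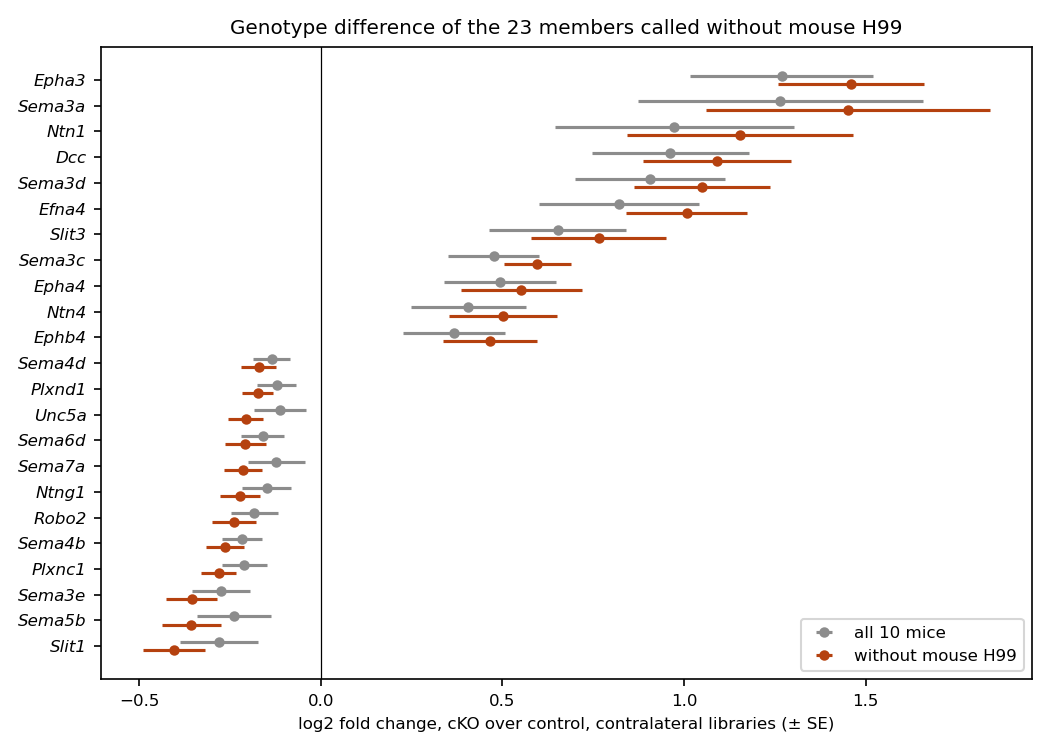
Log2 fold change of cKO over control in contralateral libraries with 1 SE, for the 23 members called when mouse H99 is left out, in the fit of all 10 mice (grey) and without H99 (orange). The signs are the same in both fits, and the genes higher in cKO mice have larger differences than those lower.

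Markers of connective tissue and of several other cell types moved with these differences. The summed level of 8 fibroblast markers was 815 to 1370 CPM in control contralateral and 948 to 2320 CPM in cKO contralateral libraries, against 945 to 1530 and 865 to 1590 CPM on the ipsilateral side. Within the cKO contralateral group the sum was 1040 CPM in H61, 2320 in H64, 2030 in H95, 948 in H99 and 1740 in H100, so H64, H95 and H100 were high for the markers as they were for Epha3, Dcc, Sema3d and Ntn1. The sum of 10 tendon, cartilage and bone markers followed the same mice, at 88.7, 162, 315, 58.1 and 223 CPM, against 45.6 to 91.5 CPM in control contralateral libraries. No marker of either list was at 0 in any library. Between genotypes on this side 8 of 8 fibroblast markers had a positive log2 fold change (median 0.89, 0 called), as did 10 of 10 of the tendon, cartilage and bone list (median 1.41, 0 called). Without H99 the medians were 1.05 and 1.66, with 4 markers called higher in each list. In that fit without H99, 6 of 20 sensory neuron markers were called lower (median -0.05), and none with all mice (median -0.02). Other lists also had mostly positive log2 fold changes of cKO over control contralateral libraries, with 0 markers called. Positive were 13 of 13 macrophage markers (median 0.31), 8 of 8 of neutrophils (0.72) and 8 of 8 of endothelium (0.18). So were 5 of 5 of erythroid cells (0.47) and 8 of 9 of skeletal muscle (1.31). Lymphocyte markers went the other way, with 1 of 10 positive (median -0.48), and 3 of 8 satellite glia markers were positive (-0.10), again with 0 called. The macrophage sum was 137 CPM in H61, 270 in H64, 199 in H95, 103 in H99 and 188 in H100, and H99 was also lowest for neutrophils (19.4 CPM), erythroid cells (272 CPM) and skeletal muscle (6.16 CPM). The skeletal muscle sum was 1980 CPM in H100 and at most 74.9 CPM in the other cKO contralateral libraries, against 10.9 to 447 CPM in control contralateral ones. Its median was lower in cKO (23.1 CPM) than in control contralateral libraries (90.9 CPM), so the positive fold changes of this list rest on H100. The part of all these cells in the levels of Epha3, Dcc, Sema3d, Sema3a, Epha4 and Ntn1 was not tested.

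Beside the members called between sides in 1 genotype only, the marker lists had these values. Between the sides of cKO mice, 1 of 8 fibroblast and 6 of 10 tendon, cartilage and bone markers were called lower (medians -0.65 and -1.50), while in control mice 0 and 1 were called lower and the medians were 0.34 and -0.12. Skeletal muscle markers had 0 of 9 positive in cKO mice (median -3.39) and 7 of 9 in control mice (0.42), and erythroid markers 0 of 5 (-0.41) and 4 of 5 (0.03), with none called. The cKO muscle value includes the contralateral library of H100, with its sum of 1980 CPM. Of 8 satellite glia markers, 3 were called higher and 2 lower in control mice and 4 higher and 2 lower in cKO mice, and their sum was 770 to 821 CPM contralaterally and 903 to 993 CPM ipsilaterally in control mice, and 750 to 896 and 897 to 940 CPM in cKO mice. In control mice 8 of 8 endothelium markers were positive with 3 called higher (median 0.39), 13 of 13 macrophage markers with 2 called higher (0.50) and 8 of 8 neutrophil markers with 0 called (0.58). In cKO mice none of these 3 lists had a call, with 5 of 8, 9 of 13 and 2 of 8 positive (medians 0.08, 0.15 and -0.11). The summed perineurium markers separated the sides in both genotypes, at 161 to 208 against 233 to 280 CPM in control and 156 to 219 against 239 to 312 CPM in cKO mice, with 1 of 5 markers called higher in each. Pericyte and smooth muscle sums were 240 to 374 against 293 to 328 CPM in control and 263 to 289 against 298 to 351 CPM in cKO mice, with 1 of 7 called higher in each. The part of these cells in the differences between sides, in either genotype, was not tested. The summed sensory neuron markers were 15600 to 17700 CPM in control contralateral and 15600 to 17300 CPM in control ipsilateral libraries. In cKO mice they were 15500 to 17900 CPM contralaterally and 15100 to 16400 CPM ipsilaterally. Of these 20 markers, 1 was called higher and 5 lower between the sides in control mice, and 1 higher and 3 lower in cKO mice.

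**Figure D5:**
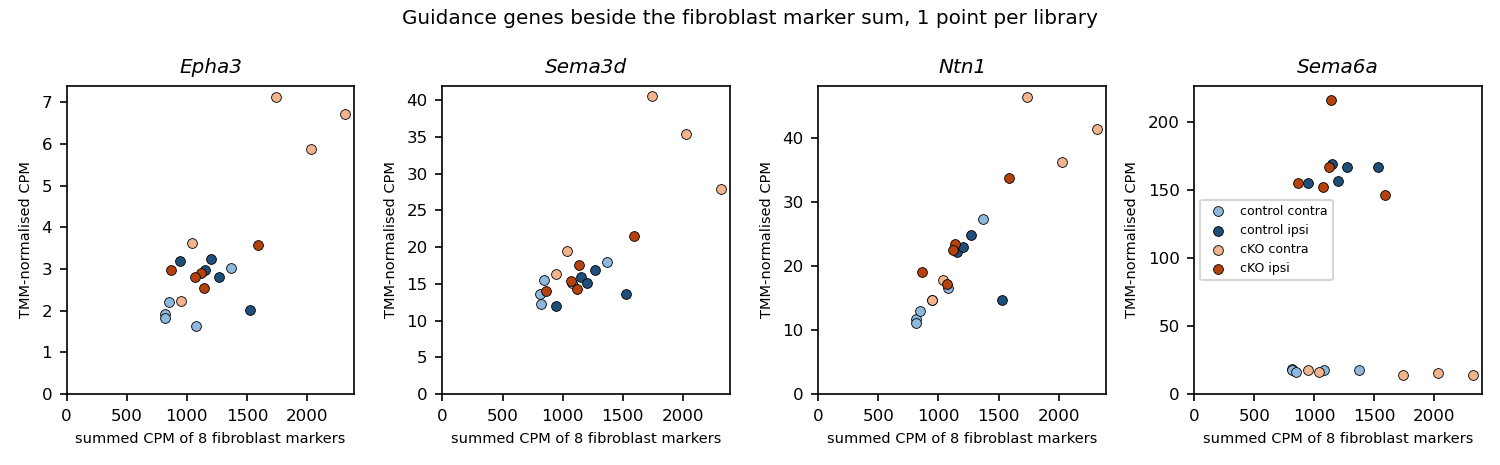
TMM-normalised CPM of Epha3, Sema3d, Ntn1 and Sema6a against the summed CPM of 8 fibroblast markers, with 1 point per library and colours for genotype and side. The cKO contralateral libraries with sums of 1740 to 2320 CPM hold the highest values of Epha3, Sema3d and Ntn1, and Sema6a is higher in the ipsilateral libraries.

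On the ipsilateral side no member was called between genotypes (0 of 73, with 0.00700% of all genes), and DESeq2 also called none. No member had an unadjusted p under 0.05 in edgeR, against 674 of 28564 tested genes. No member had genotypes without overlap, as 0.599% of all genes had. The smallest p belonged to Robo3 (log2 fold change 0.79, SE 0.386), Robo4 (-0.22, SE 0.125) and Ntn5 (-0.18, SE 0.108), each with an adjusted p of 1. Robo3 was at 0.0699 to 0.146 CPM in control and 0.0430 to 0.254 CPM in cKO ipsilateral libraries. Sema6a differed by 0.04 and Plxna4 by 0.06 between genotypes on this side.

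Whether the response to injury itself differed between genotypes was tested as the interaction of genotype and side. No member was called (0 of 73, with 0.00% of all genes), and DESeq2 called no member. In edgeR 17 of 73 members and 2799 of 28564 tested genes had an unadjusted p under 0.05. The smallest p belonged to Epha3 (-1.22, SE 0.353), Dcc (-0.94, SE 0.306) and Plxnc1 (0.27, SE 0.0877), all with an adjusted p of 0.485. For Sema6a the interaction was 0.22 (adjusted p = 0.556) and for Plxna4 0.19 (adjusted p = 0.594). The members called in cKO mice only are thus not shown to respond differently from control mice.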

How the data were processed

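The authors deposited a table of raw whole-number counts by gene for the 20 libraries, with no normalisation. The submitters' processing notes name HISAT2, Picard, mm10 and mm39 without a role; the counting program, annotation and strand setting are not given in the sources used here. The labels name a spinal cord injury in 1 field; the protocol's sciatic nerve transection was followed. A deposited FPKM table was not used.

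Counts were fitted with edgeR 4.0.16 in R 4.3.3 (TMM scaling, robust quasi-likelihood test, 1 mean per group, all 20 libraries) after filterByExpr (minimum count 10, minimum total 15), which left 28564 genes. Benjamini-Hochberg adjustment ran over these genes, with 0.05 as the threshold. On simulated data the fit of the injury comparison in control mice recovered 47 and 48 of 50 genes at log2 changes of -1 and 1, and 37 and 38 of 50 at -0.5 and 0.5. The changed genes were drawn from those with a mean of at least 1 CPM, and all others were left unchanged. The simulated libraries were independent, without pairing by mouse or differences in cell content, so recovery in the real data can be lower. Values per library are TMM-normalised CPM; levels between genes are per kilobase of merged exon (GENCODE M21). Reads carry no molecular identifiers, and replicates differed by more than counting error (chi-square per degree of freedom 4.97 to 52.7 over 40 pairs).

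Each mouse gave 1 library per side, by the mouse number in the library names, so that the sides are paired by animal; the correlation of their deviations from group means had a median of 0.186 (-0.0546 to 0.361). Mouse as a block was an alternative, as were DESeq2 1.42.0, RLE scaling, no filter, a filter at a mean of 1 CPM, only the libraries compared and leaving out each mouse.

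Genes were named if called for injury with an absolute log2 fold change of at least 0.5 and 1 CPM or more on average in the higher group (at most 30, with values in every library for the 8 largest), if highest per kilobase in a family, or if among the 3 smallest p of a comparison between genotypes with no call; genes that failed the filter were named too. All other named genes were picked with their values in view. The members, gene lists and rule were chosen with earlier results of these data known.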

Additional observations from a re-analysis of the deposited data

Results flagged for a closer look

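Among 112 groups of 5 libraries examined for the genes with values above, 9 had 1 library apart from the other 4, where a gap to the nearest library of over 0.71 of the range marks it; chance gives about 1 in 20, or 5.6 groups. Ephrin and Eph genes gave Efna3 in control contralateral libraries, where H62 was lowest (3.21 CPM, others 3.78 to 3.95, gap 0.772), and Epha6 in cKO ipsilateral libraries, where H100 was lowest (8.54 CPM, others 10.9 to 11.8, gap 0.716). For Ntng2 in control ipsilateral libraries H62 was lowest (28.5 CPM, others 32.5 to 33.4, gap 0.818). For Sema6a in cKO ipsilateral libraries H64 was highest (216 CPM, others 147 to 167, gap 0.713). For Robo2 in the same group H61 was lowest (230.0 CPM, others 251 to 256, gap 0.81).

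Plxna4os3 had H62 highest in control ipsilateral libraries (2.33 CPM, others 1.77 to 1.84, gap 0.869) and H64 highest in cKO ipsilateral ones (2.52 CPM, others 1.80 to 1.95, gap 0.794). Plxna4os2 had counts in H95 alone among cKO contralateral and among cKO ipsilateral libraries, at 0.0444 and 0.0359 CPM, so its gap was 1.0 in both.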

How the results depend on the processing

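For injury, settings with all 10 mice called 26 to 34 members (control) and 30 to 37 (cKO), where the share of all genes ran from 12.6% (no filter) to 40.5% (mean of 1 CPM) and from 13.1% to 42.8%; with only the 5 mice compared, 38 and 29 were called (32.3% and 26.2% of all genes), and leaving out 1 mouse gave 22 to 33 and 28 to 34. With mouse as a replicate block, 34 members were called in control (29 shared with the unpaired fit) and 36 in cKO mice (31 shared), and the interaction had 0; the paired fit lost Epha5 and Epha7 in cKO mice and gained Ephb6 and Plxnb3 in both genotypes, Plxnb2, Sema3f and Sema4d in control mice, and Efnb1, Slit2 and Slit3 in cKO mice. Calls also lost without the filter were Ephb4, Robo2 and Sema3c (control) and Epha3, Epha7 and Sema5b (cKO); fitting only the cKO libraries lost Epha3, Plxnc1, Sema3d, Sema3f and Sema5b, and RLE scaling Sema5b. Between genotypes on the contralateral side the 0 calls became 9 with DESeq2, 1 (Epha3) with genes under a mean of 1 CPM removed, and 0 to 23 with 1 mouse left out; the cause was not tested. The ipsilateral comparison and the interaction kept 0 called members in every setting run.

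Over 63 results, 928 of 992 alternative values kept direction and side of the threshold, 30 lost and 18 gained a call, and 16 changed sign, none of them a call. With 1 mouse left out, log2 fold changes ran from -0.0516 to 0.0814 for Dcc and from -0.0522 to 0.0261 for Sema3d in control mice (injury), and in cKO mice Robo2 from -0.0387 to 0.0903, Unc5a from -0.0346 to 0.0989 and Sema3b from -0.013 to 0.0835; between genotypes on the ipsilateral side Sema6a ran from -0.0699 to 0.0836 and Plxna4 from -0.0323 to 0.0976. With only the libraries compared, Dcc had 0.006 in control mice. Sema3a, Robo3, Plxna4os1 and Plxna4os2 lay mostly below 1 CPM, where few counts limit precision.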
